A study of Mus musculus with 11 samples.

Results

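Apolipoprotein E and the genes of the liver X receptor (LXR) pathway were described in hearts of female mice. The series compares mice exposed to anti-Müllerian hormone (AMH) before birth, used as a model of polycystic ovary syndrome (PCOS), with mice given vehicle (phosphate-buffered saline) before birth. All 11 libraries carry the same labels for tissue (heart) and genotype (wild type, WT); 6 are controls (C1 to C6) and 5 are PCOS (P1 to P5). The labels give no age, strain or litter. Whether each library stands for its own mouse is not said, so the p-values measure only the spread between these libraries and may in part be technical. Of the 10 symbols chosen for this description, Apoe, Abca1, Abcg1, Mylip, Nr1h2, Nr1h3, Srebf1, Scd1 and Scd2 matched a row by RefSeq accession, 9 of 21878 rows in all. Lpcat3 matched none and is not analysed here. By the RefSeq annotation of the mm10 assembly, whole genes from first to last base, the receptor genes lie at chr7:44549616-44553968 (Nr1h2) and chr2:91184061-91202829 (Nr1h3). The transporter genes lie at chr4:53030789-53159988 (Abca1) and chr17:31057694-31117984 (Abcg1), and Mylip at chr13:45389742-45411940. Srebf1 lies at chr11:60199084-60224186, and the desaturase genes are neighbours at chr19:44394450-44407709 (Scd1) and chr19:44293676-44306864 (Scd2). The genes were chosen by measured values, the very low Apoe level in C2 and C5, so the Apoe values below and the order of C2 and C5 among the libraries are descriptions and carry no test.

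LXRs are nuclear receptors that bind oxysterols, oxidised forms of cholesterol, and act on DNA as partners of the retinoid X receptors. When cells hold surplus sterol, they raise genes that move cholesterol out of the cell (Abca1, Abcg1), that lower lipoprotein uptake (Mylip), and that make unsaturated fatty acids (Srebf1 and, with it, Scd1 and Scd2). Apoe, itself an LXR target in macrophages and fat cells, encodes the protein that carries lipoprotein particles to receptors on cells, and is made above all by liver and macrophages.

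The promoters of Abca1 and Srebf1 are shown because these genes are textbook LXR targets and because Abca1 is among the genes whose level set C2 and C5 apart. RefSeq windows (GRCm38.p6, the assembly of mm10) of 250 bases before to 50 bases after a start were at hand for 7 of the 10 genes, 12 windows in all. They were searched on both strands for a direct repeat spaced by 4 bases (DR4), in the form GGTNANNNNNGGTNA (reverse TNACCNNNNNTNACC), which 0.718% of all 32851 promoter windows of that length hold. The members' 12 windows held it 2 times, in Abca1 and in 1 of the 3 Srebf1 windows. Each is written 5′ to 3′ along the gene, up to the base before the start, with the match in capitals.
Abca1, chr4:53159896-53160145, minus strand: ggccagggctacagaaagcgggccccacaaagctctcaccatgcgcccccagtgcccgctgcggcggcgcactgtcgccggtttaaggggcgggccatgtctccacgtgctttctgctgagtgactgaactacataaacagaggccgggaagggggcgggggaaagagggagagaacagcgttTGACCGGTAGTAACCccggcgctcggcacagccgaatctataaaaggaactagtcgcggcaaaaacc
Srebf1, chr11:60210472-60210721, minus strand: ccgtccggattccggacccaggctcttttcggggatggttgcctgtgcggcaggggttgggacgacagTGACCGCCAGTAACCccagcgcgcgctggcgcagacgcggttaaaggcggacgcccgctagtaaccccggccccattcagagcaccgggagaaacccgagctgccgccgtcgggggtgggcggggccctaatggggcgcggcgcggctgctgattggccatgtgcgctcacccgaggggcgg
Both matches read on the strand opposite to the gene and begin 67 bases (Abca1) and 182 bases (Srebf1) before the start. A second form of the repeat, GNTCANNNNNGNTCA (reverse TGANCNNNNNTGANC, in 0.858% of windows), and the sterol regulatory element (ATCAC, any base, then CCAC, on either strand; in 0.234%) were not found in these windows. A match is a string of letters and not a measured binding site.

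Before the values, 3 control libraries need mention. C2 and C5 differ from the other controls in nothing the labels give, and carry the same WT genotype, yet Apoe there was far below its level elsewhere. C6 held liver transcripts: the summed level of 12 liver markers was 2107 FPKM in C6 and between 8.68 and 26.3 FPKM in the other 10 libraries, with Alb (albumin) at 852 FPKM in C6 and at most 1.06 FPKM elsewhere. Heart muscle markers were high throughout, 9 of them summing to between 32000 and 37970 FPKM in a library. FPKM counts fragments per kilobase of transcript, scaled to library size, so levels can be compared between genes. Whole reads recovered from the FPKM steps came to between 11866291 and 14346620 per library.

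Apoe was at 6.04 FPKM in C2 and 8.29 FPKM in C5. The other controls had 180.1 FPKM in C1, 158 in C3, 98.8 in C4 and 486 in C6. The PCOS libraries had 314 FPKM in P1, 296 in P2, 322 in P3, 274 in P4 and 337 in P5. C2 and C5 thus stood below all others, the PCOS libraries lay within a factor of 1.23 of each other, and C6 was highest. Against the median of the other 9 libraries (296 FPKM), Apoe was 49.0-fold lower in C2 and 35.8-fold lower in C5, and C4, the lowest of the 9, was still 11.9-fold above C5. The values are not at 0, since they rest on 133 reads in C2 and 156 in C5, against 1980 to 9908 reads in the others. Of 10891 rows with a mean of at least 1 FPKM, Apoe was the 1 row (0.00918%) with both C2 and C5 at least 10-fold below every other library, a contrast that also chose the gene. Apoe lies on chromosome 7 from 19696244 to 19701310 (mm10), and Tomm40, the gene beside it from 19701313 to 19715442, was at 53.7 FPKM in C2, 54.1 in C5 and 59.3 to 69.2 in the other 9, a far smaller gap. Other genes of chromosome 7 did set C2 and C5 apart, among them Trappc6a and Igsf23, as given below.

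**Figure D1:**
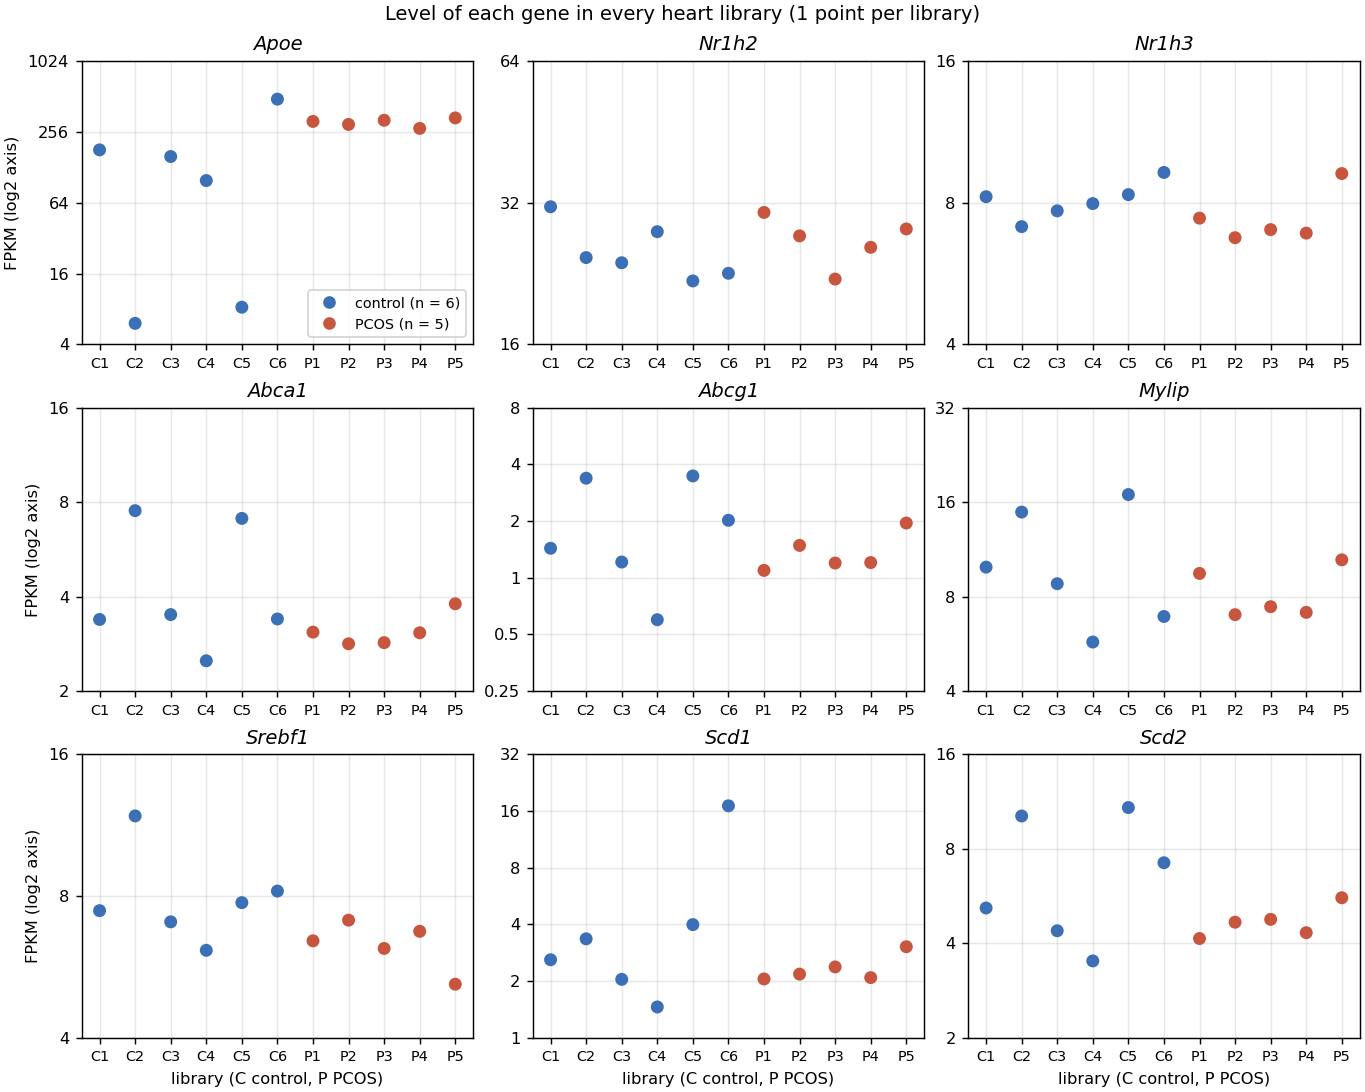
Level of each gene in the 11 libraries, in FPKM on a log2 axis; each point is 1 library, blue for control and red for PCOS. Apoe is lowest in C2 and C5, while Abca1, Abcg1, Mylip and Scd2 are highest in those libraries.

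In the 5 PCOS libraries Apoe ranged from 274 to 337 FPKM, above C1, C3 and C4 (98.8 to 180.1 FPKM) and below C6. The mean was 309 ± 24.1 FPKM (SD, n = 5) in PCOS and 156 ± 177 FPKM (SD, n = 6) in controls, whose spread was set by C2, C5 and C6. No test is given for Apoe. The summed level of macrophage markers was also higher in every PCOS library than in every control. The sum over 10 of 12 listed markers, none of them at 0, was 294 to 408 FPKM in PCOS and 135 to 258 FPKM in controls, and 3 of the 9 tested, Cd68, Trem2 and Lgals3, were higher in PCOS (limma, adjusted p from 0.000298 to 0.00427), where 0.138% of all rows were called. Without C2, C5 and C6 there were 6 of 9, against 0.202% of all rows. These are the controls with the highest macrophage sums, given below, so leaving them out favours such calls and nothing is read from the larger count. Not every marker was higher: Cd14 was at 2.44 ± 0.648 FPKM in controls against 2.04 ± 0.226 FPKM in PCOS, and Fcgr1, under the filter, at 0.798 against 0.765 FPKM. Red cell markers were higher as well, 5 of 5 tested with none called, and their sum was 849 to 2229 FPKM in PCOS and 530 to 1528 FPKM in controls. Earlier results for the 3 macrophage genes were known when the list was made. In bulk tissue, more cells of a type and more RNA per cell cannot be told apart, and the part of macrophages in the Apoe level was not tested. By library, the macrophage sum was 199 FPKM in C2 and 258 in C5, where Apoe was lowest. The sum was 188 in C1, 164 in C3, 135 in C4 and 256 in C6. Lyz2 was its largest part, at 96.4 FPKM in C2 and 118 in C5. The high Apoe value of C6 came with the liver transcripts, among them the neighbours Apoc1 (204 FPKM in C6, at most 0.909 elsewhere) and Apoc4 (24.6 FPKM, at most 0.417 elsewhere); their part in it was not tested.

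**Figure D2:**
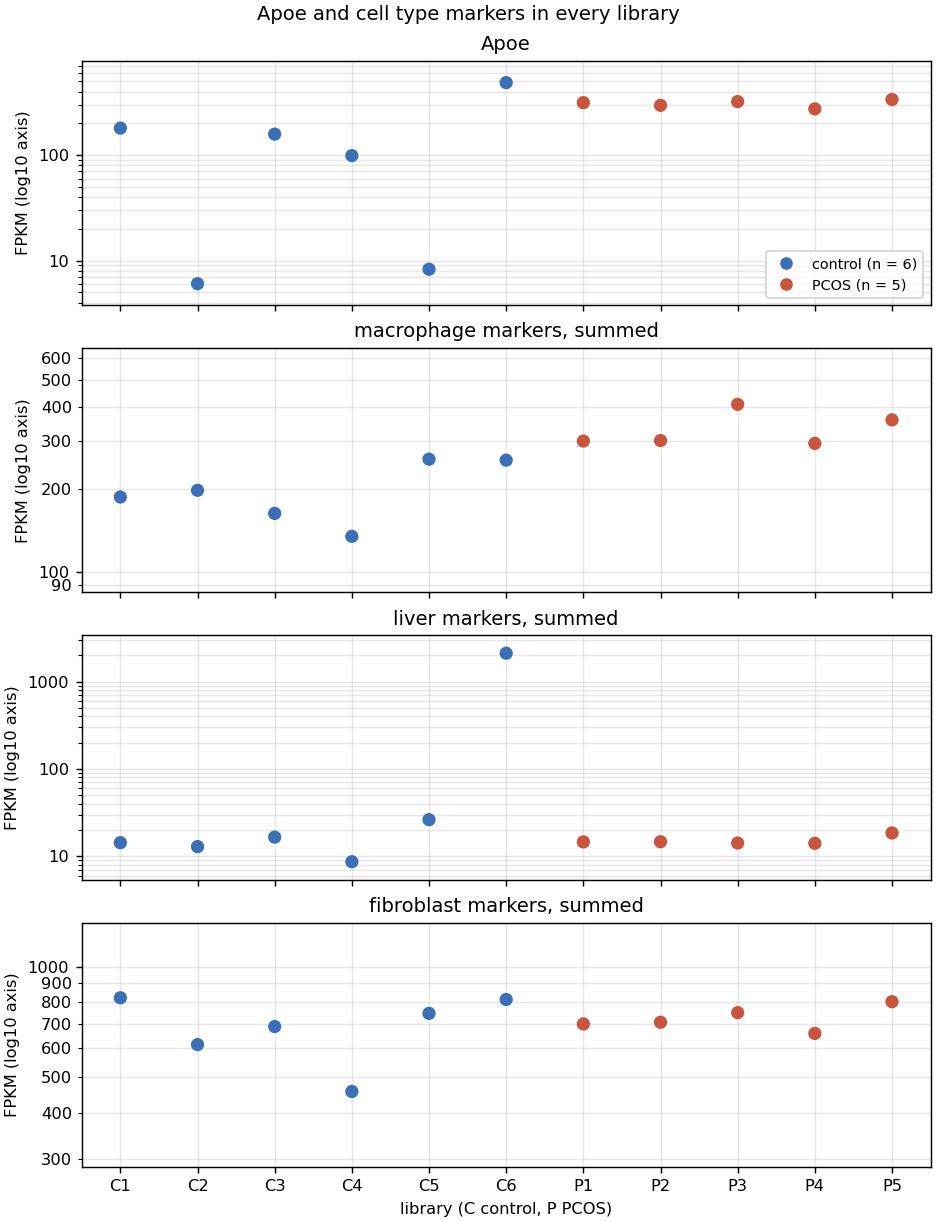
Apoe and the summed levels of macrophage, liver and fibroblast markers in each library, in FPKM on log10 axes, blue for control and red for PCOS. Apoe is low in C2 and C5, where the macrophage sum is 199 and 258 FPKM, and the liver sum is high in C6 alone.

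The receptors themselves differed little between libraries. Nr1h2, which encodes LXR-beta, the form found in most tissues, was at 31.4, 24.5, 23.9, 27.8, 21.8 and 22.7 FPKM in C1 to C6 and at 30.5, 27.2, 22.03, 25.7 and 28.2 FPKM in P1 to P5. Its highest library was 1.44-fold above its lowest, and the groups overlapped. Nr1h3, which encodes LXR-alpha, the form of liver, fat and macrophages, was at 8.24, 7.12, 7.69, 7.97, 8.32 and 9.28 FPKM in C1 to C6 and at 7.42, 6.74, 7.01, 6.90 and 9.23 FPKM in P1 to P5. C6 and P5 were highest, and C2 and C5 lay within the range of the rest for Nr1h3, while C5 was lowest for Nr1h2. The longest transcripts of the receptor genes shared 0 windows of 50 bases, so their reads can be kept apart.

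The cholesterol exporters were highest in the libraries where Apoe was lowest. Abca1, the transporter that loads lipid onto apolipoprotein A-I, was at 3.38, 7.52, 3.51, 2.498, 7.10 and 3.395 FPKM in C1 to C6 and at 3.08, 2.83, 2.85, 3.07 and 3.80 FPKM in P1 to P5. C2 and C5 stood 2.44-fold and 2.30-fold above the median of the other 9, and their 1098 and 887 reads compare with 332 to 548 elsewhere. Abcg1, which passes cholesterol to larger particles, was at 1.43, 3.38, 1.21, 0.598, 3.47 and 2.02 FPKM in C1 to C6 and at 1.09, 1.49, 1.197, 1.204 and 1.95 FPKM in P1 to P5. That is 2.79-fold (C2) and 2.87-fold (C5) above the median of the other 9, with C4 lowest at 44 reads. Abca1 and Abcg1 were among 12 of 10891 rows (0.11%) in which both libraries lay at least 1.5-fold above all others.

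Mylip, a ubiquitin ligase that marks lipoprotein receptors for breakdown, followed the same order. It was at 9.93, 14.9, 8.80, 5.73, 16.9 and 6.92 FPKM in C1 to C6 and at 9.48, 7.01, 7.43, 7.13 and 10.48 FPKM in P1 to P5. C2 and C5 were 2.003-fold and 2.28-fold above the median of the others, which otherwise lay between 5.73 and 10.48 FPKM.

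Srebf1, the transcription factor that drives fatty acid synthesis, was at 7.45, 11.8, 7.05, 6.14, 7.75 and 8.20 FPKM in C1 to C6 and at 6.43, 7.11, 6.19, 6.73 and 5.20 FPKM in P1 to P5. C2 was highest, but C5 lay below C6 and near C1, so Srebf1 did not share the order of the exporters. Its promoter window with the DR4 match belongs to 1 of 3 starts, which the gene-level values do not separate. Scd2, a desaturase that makes monounsaturated fatty acids, was at 5.18, 10.2, 4.38, 3.51, 10.8 and 7.22 FPKM in C1 to C6 and at 4.14, 4.67, 4.77, 4.32 and 5.59 FPKM in P1 to P5. C2 and C5 were highest, 2.18-fold and 2.32-fold above the median of the other 9, followed by C6.

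Scd1, a close relative of Scd2 and abundant in liver and fat, was at 2.596, 3.35, 2.04, 1.46, 3.99 and 17.1 FPKM in C1 to C6 and at 2.05, 2.18, 2.38, 2.09 and 3.04 FPKM in P1 to P5. C6 was highest, 8.002-fold above the median of the 8 libraries other than C2, C5 and itself, and C5 and C2 followed. The liver markers of C6 are given above. The sum of 10 fat cell markers was also highest there, at 1402 FPKM against 635 to 1030 FPKM. Most of that sum was Fabp4, at 1285 FPKM in C6 and 596 to 989 FPKM elsewhere. Car3 (64.0 FPKM, at most 1.79 elsewhere), Cfd (7.14 FPKM, at most 1.52 elsewhere) and Adipoq (1.77 FPKM, at most 0.435 elsewhere) were highest in C6. So were Cidec, Retn and Plin1, at 1.55, 0.968 and 0.377 FPKM in C6, while Pparg, Cidea and Ucp1 were not. The part of liver or fat cell markers in the Scd1 level was not tested. Scd1 and Scd2 transcripts shared 145 windows of 50 bases, 3.03% of those of Scd1, so few reads could be exchanged between them.

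Both C2 and C5 lay above all other 9 libraries in 4 of the 9 genes (Abca1, Abcg1, Mylip and Scd2), an order that 3.89% of all tested rows had, and below all 9 in 1 (Apoe), which 3.78% had. The choice of genes used this contrast, so nothing is read from these shares. On the log2(FPKM + 1) scale the 4 genes differed from the median of the other 9 by 0.91 to 1.06 in C2 and by 0.99 to 1.09 in C5. In 95.3% of all tested rows both libraries differed from that median by less than 0.5.

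**Figure D3:**
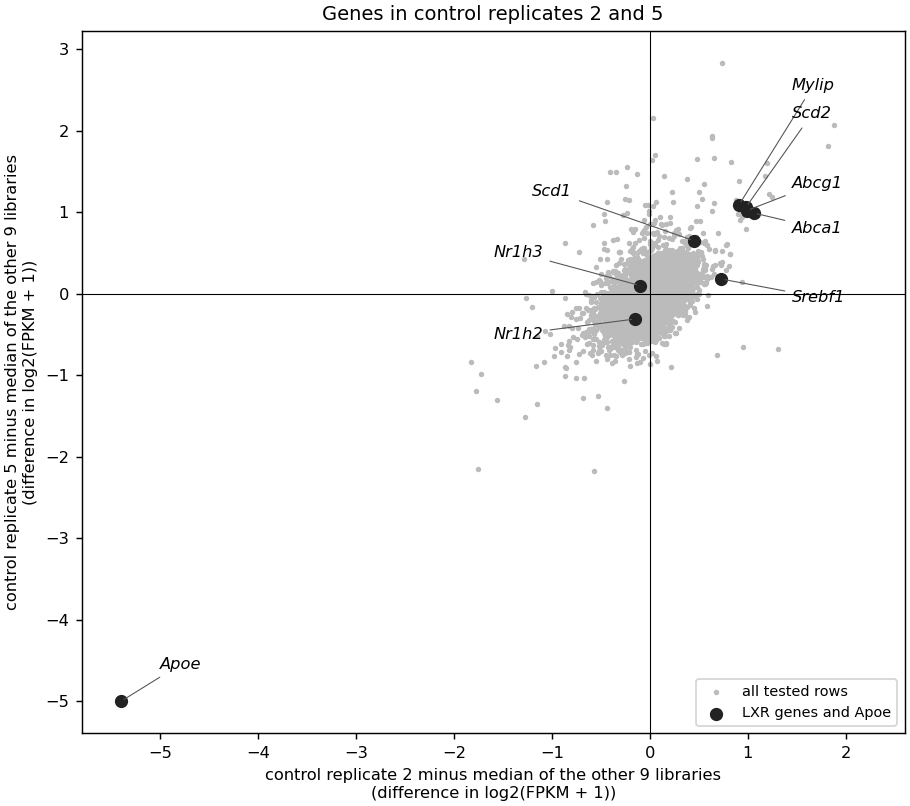
Difference of control replicate 2 (x axis) and control replicate 5 (y axis) from the median of the other 9 libraries, in log2(FPKM + 1); grey points are all 10891 tested rows and black points the 9 genes. Abca1, Abcg1, Mylip and Scd2 lie close together near 1 on both axes, and Apoe at −5.4 and −5.0.

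By median level over the 11 libraries, the genes ranked from Apoe (274 FPKM) through Nr1h2 (25.7), Mylip (8.80), Nr1h3 (7.69), Srebf1 (7.05), Scd2 (4.77), Abca1 (3.38) and Scd1 (2.38) to Abcg1 (1.43). Outside C2 and C5, Apoe and Nr1h2 stood apart from the rest, whose ranges overlapped without clear steps. Scd2 (3.51 to 7.22 FPKM) reached into the ranges of Mylip, Nr1h3, Srebf1 and Abca1. Scd1 (1.46 to 17.1 FPKM, the top being C6) overlapped all of these and Abcg1. C4 was lowest of the 9 libraries other than C2 and C5 in 6 of the 9 genes (Apoe, Abca1, Abcg1, Mylip, Scd1 and Scd2), an order found in 24.4% of all tested rows. Markers of the cells between the myocytes were lowest in C4 too: 8 fibroblast markers summed to 458 FPKM there and to 614 to 823 FPKM elsewhere, and 7 endothelial markers to 219 FPKM against 258 to 381 FPKM. Their part in the C4 values was not tested. C6 was above the other 10 libraries in 3 of the 9 genes (Apoe, Nr1h3 and Scd1), an order that 18.7% of all tested rows had.

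PCOS and control hearts were then compared for the 8 genes other than Apoe, with limma on log2(FPKM + 1) over all 10891 rows with a mean of at least 1 FPKM and Benjamini-Hochberg adjustment. None of the 8 was called, with adjusted p from 0.738 to 0.851 (limma), where 0.138% of all rows were called. At an unadjusted p under 0.05 there was 1 of 8, Srebf1, against 6.68% of all rows. The count was 3 of 8 without C4 and 0 without C2, C5, C6, P1 or P3, each left out alone. Without P5 it was 1 of 8, but this was Nr1h3 (limma, unadjusted p = 0.0293) and no longer Srebf1 (limma, unadjusted p = 0.11). On the recovered reads voom called 0 (0.11% of all rows). The 2 groups overlapped in all 8 genes, where 0.698% of all rows had groups that did not overlap.

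The differences leaned towards lower values in PCOS, 7 of 8 genes with a median log2 difference of −0.271, beside 0.002 over all rows and 49.4% of all rows lower. Srebf1 averaged 8.07 ± 1.97 FPKM over the controls (SD, n = 6) against 6.33 ± 0.722 FPKM over PCOS (SD, n = 5), a log2 difference of −0.29 (SE 0.13, adjusted p = 0.738, limma). Abca1 was at 4.57 ± 2.16 and 3.13 ± 0.392 FPKM, a log2 difference of −0.35 with a 95% confidence interval from −0.80 to 0.10. For Scd2 the log2 difference was −0.38 (−0.86 to 0.10), for Scd1 −0.49 (−1.33 to 0.35), for Abcg1 −0.26 (−0.76 to 0.25) and for Mylip −0.24 (−0.72 to 0.25). The receptors had the narrowest intervals, −0.11 (−0.29 to 0.07) for Nr1h3 and 0.08 (−0.14 to 0.29) for Nr1h2.

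Without C2 and C5 most of these differences were near 0. The log2 difference was then −0.02 for Abca1 (−0.25 to 0.20), 0.07 for Abcg1, 0.08 for Mylip and −0.06 for Scd2, and the median over the 8 genes was −0.042. Scd1 stayed at −0.50 without C2 and C5 but was −0.10 without C6 (−0.47 to 0.26), the library in which it was highest. Srebf1 was at −0.16 without C2 and C5 and −0.28 without C6. None of the 8 genes was called in either fit, which called 0.0918% (without C2 and C5) and 0.294% (without C6) of all rows.

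**Figure D4:**
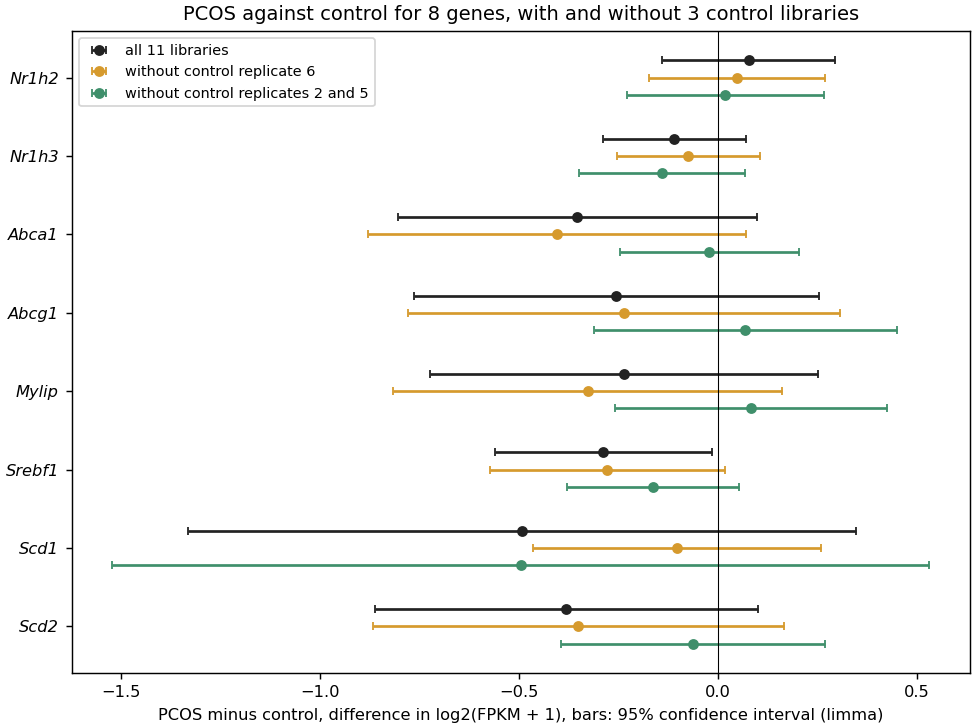
PCOS minus control difference in log2(FPKM + 1) for 8 genes, points with 95% confidence intervals from limma, for all 11 libraries (black), without control replicate 6 (yellow) and without control replicates 2 and 5 (green). Abca1, Abcg1, Mylip and Scd2 move to between −0.06 and 0.08 without C2 and C5, and Scd1 to −0.10 without C6.

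Relations between genes were tested in 6 pairs that share LXR or SREBP1 as a known regulator. Because C2 and C5 form a cluster of their own in most of these genes, values are given over the other 9 libraries, with exact two-sided permutation tests adjusted over the 6 pairs. Scd1 and Scd2 varied together (Pearson r = 0.895, permutation p = 1.1e-05, adjusted 6.6e-05; Spearman rho = 0.95, p = 0.000353, adjusted 0.00212), and r was 0.968 without C4 and C6, the libraries farthest from the Scd1 median. Over all 11 libraries, as planned, this pair did not pass by Pearson's r (0.549, permutation p = 0.091, adjusted 0.109), while rho was 0.945 (permutation p = 3e-05, adjusted 0.00018). Abca1 with Abcg1 gave r = 0.764 (permutation p = 0.0173, adjusted 0.0346; rho = 0.60, p = 0.0968, adjusted 0.194) and Abca1 with Mylip r = 0.78 (permutation p = 0.014, adjusted 0.0346; rho = 0.65, p = 0.0666, adjusted 0.194). Both rest on C4 and P5, since without them r was 0.307 and 0.446. Abcg1 with Mylip (r = 0.451, permutation p = 0.226, adjusted 0.271; rho = 0.167, p = 0.678, adjusted 0.678), Srebf1 with Scd1 (r = 0.534, p = 0.192, adjusted 0.271; rho = 0.317, p = 0.41, adjusted 0.492) and Srebf1 with Scd2 (r = 0.382, p = 0.307, adjusted 0.307; rho = 0.367, p = 0.336, adjusted 0.492) did not pass. Control and PCOS libraries were pooled in these tests, and neither group alone has 6 libraries outside C2 and C5.

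The rest of the pathway was read from 6 lists of 88 genes, of which 78 were in the table and 62 were tested. None was called (limma, 0.138% of all rows), 9 had an unadjusted p under 0.05 (6.68% of all rows) and voom called 0 (0.11% of all rows). With all libraries 49 of the 62 were lower in PCOS and 13 higher, where 49.4% of all rows were lower. The count was 41 of 62 without C6 and 37 of 62 without C2, C5 and C6. Apoc1, Apoc4 and Apoa1 passed the filter only through C6 (204, 24.6 and 274 FPKM, against at most 0.909, 0.417 and 2.499 FPKM elsewhere), so their lower values in PCOS say nothing of the other libraries. In the same lists, C2 and C5 were both above all others in 3 genes, named with their lists below.

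Among LXR partners and co-regulators 12 of 16 genes were tested, 8 lower and 4 higher, with a median log2 difference of −0.079. It ranged from −0.112 (without C6) to −0.039 (without C1) when 1 library was left out. The smallest p went to Hdac3, a deacetylase of the corepressor complex, with a control mean of 33.4 ± 2.51 FPKM against a PCOS mean of 37.96 ± 1.10 FPKM (log2 difference 0.18 with SE 0.06 and adjusted p = 0.738, limma). Every PCOS library lay above every control for Hdac3, from 36.8 to 39.7 against 28.7 to 35.4 FPKM. Of all rows, 0.698% had groups that did not overlap, in either direction. C6 was the lowest control for Hdac3, and the log2 difference was 0.14 without it. Ep300, an acetyltransferase that works as a coactivator, was at 5.83 ± 1.04 and 4.73 ± 0.328 FPKM. Rxrg, the retinoid X receptor form of muscle, was more abundant than Rxra and Rxrb in all 11 libraries, at 29.2 to 37.0 FPKM.

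Of 20 other LXR targets 14 were tested, with 8 lower, 6 higher and a median of −0.043, which ranged from −0.076 (without P1) to 0.005 (without C6) when 1 library was left out. Pltp, which transfers phospholipid between lipoproteins, averaged 23.6 ± 3.80 FPKM over the controls against 28.7 ± 3.82 FPKM over PCOS, with overlapping groups, and Tlcd2 at 4.01 ± 0.775 and 3.35 ± 0.216 FPKM. No gene of this list set C2 and C5 together above or below the rest. Without C6 there were 7 lower and 7 higher.

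Genes of SREBP1 and fatty acid synthesis were all lower in PCOS, 16 of 16 tested, where 49.4% of all rows were lower. The differences were small: the median was −0.107 and the lowest adjusted p was 0.738 (limma). Without C6 there were 13 of 16 lower, without C1 14 of 16, and without P1 or without P3 15 of 16. Without C2 and C5 there were 15 of 16, and without C2, C5 and C6 11 of 16. Fasn, the fatty acid synthase, was at 3.44, 4.26, 2.63, 3.26, 4.75 and 3.80 FPKM in C1 to C6 and at 2.91, 2.51, 2.602, 2.27 and 2.70 FPKM in P1 to P5 (log2 difference −0.37, SE 0.11, adjusted p = 0.738, limma). C2 and C5 were highest for Fasn and C3 lay among the PCOS libraries. Acaca, the carboxylase that supplies its substrate, was at 1.49 ± 0.213 and 1.13 ± 0.182 FPKM. The other gene with both C2 and C5 on top was Mbtps2, a protease that frees SREBPs from the membrane, by a small margin (2.85 and 2.72 FPKM against at most 2.70).

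All 6 tested receptors and helpers of apoE uptake were lower in PCOS, where 49.4% of all rows were lower. The median was −0.073 and none was called. There were 5 of 6 lower when C1, C2, C5, P1 or P2 was left out, and the median ran from −0.044 without C1 to −0.123 without C4. Scarb1, the HDL receptor, was at 11.2 ± 1.63 and 9.47 ± 0.643 FPKM, and Vldlr at 46.5 ± 8.81 and 40.1 ± 4.61 FPKM, with its lowest library, C6, at 29.6 FPKM.

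In the list of oxysterol and sterol handling, 10 of 16 were tested, 8 lower and 2 higher, with a median of −0.033, which ranged from −0.084 (without C5) to 0.04 (without C6) when 1 library was left out. The 2 higher were Cyp27a1, which makes an oxysterol that binds LXR, at 9.63 ± 1.41 and 12.3 ± 2.97 FPKM, and Npc2, which moves cholesterol out of lysosomes, at 22.4 ± 2.10 and 25.4 ± 1.69 FPKM. Npc1, the partner of Npc2, was highest in C2 and C5, at 13.9 and 13.1 FPKM against 8.19 to 12.8 FPKM. Without C6 the list had 4 lower and 6 higher.

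Of 8 relatives of the SCD and LPCAT enzymes 4 were tested, and Mboat7 (7.79 ± 0.72 and 7.39 ± 0.608 FPKM) and Mboat2 (1.39 ± 0.204 and 1.34 ± 0.158 FPKM), both of the family of enzymes that attach fatty acids to lysophospholipids, had the smallest p. Scd4, the desaturase known from heart, did not follow Scd2: it was at 3.45 FPKM in C2 and 3.32 in C5 and at 3.16 to 6.22 FPKM in the others. Scd3 was at most 0.141 FPKM.

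By likeness of pattern over the 11 libraries (Pearson r on log2(FPKM + 1), a description without a test), the 5 rows most like Apoe were Bcam (r = 0.945), Commd9 (0.942), Aamp (0.918), 1190007I07Rik (0.908) and Ap2s1 (0.905). Without C2 and C5 the r of these rows with Apoe lay between 0.433 and 0.797. Bcam, a neighbour of Apoe on chromosome 7 from 19756138 to 19770532, was at 111 FPKM in C2 and 101 in C5 and at 144 to 164 FPKM in the rest, and had the lowest r of the 5 without these libraries. The 5 rows most like Scd1 were Trf (0.966), Adh1 (0.965), Ahsg (0.961), Hmgb1 (0.959) and Sardh (0.959). Trf and Ahsg are plasma proteins made by liver, and both were highest in C6 (146 and 103 FPKM); without C6 their r with Scd1 was 0.717 and 0.654.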

How the data were processed

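Gene-level FPKM was deposited by the authors for 11 heart libraries, 1 row per gene model. Per the submitters' processing notes, the tools were HISAT2 2.2.1 and HTSeq 0.13.5, with FastQC 0.11.9 and Trimmomatic 0.38, DESeq2 1.18.1 and R 3.4.1, on mm10; settings and the strand counted are not given in the sources used here. Per the labels' protocols, a mirVana kit and a TruSeq Stranded mRNA kit were used.

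Symbols and positions came from RefSeq genes of GRCm38.p6; 13175 of 21878 rows matched by versioned accession, 5903 by another version and 2800 not at all. Values were used without rescaling. FPKM is relative to the library total, so abundant foreign RNA can lower other genes. Reads were recovered as whole multiples within each row (15939 of 15939 rows above 0 in at least 3 libraries, within 0.1 of a whole number).

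limma 3.58.1 in R 4.3.3 (trend) was run on log2(FPKM + 1) for 10891 rows averaging 1 FPKM or more, with Benjamini-Hochberg adjustment at 0.05; the scale understates changes of low genes. Pair relations were planned over 11 libraries and are given over 9, as C2 and C5 cluster apart. The fit and the read recovery were tested on simulated data. Members, lists, rules and alternatives were chosen with earlier results of these data known. Named genes are all members, the 2 genes of smallest p per list, and the 5 rows most like Apoe and Scd1; others (C2 and C5 extremes, Tomm40, Rxrg, Scd4) were chosen after their values were seen. Some genes of the lists are not reported here by name.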

Additional observations from a re-analysis of the deposited data

Results flagged for a closer look

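In groups of 5 or 6 libraries, 1 library was set apart when its gap to the next exceeded Dixon's 95% limit (0.625 of the range for 6, 0.71 for 5), which chance alone does in about 1 of 20 groups. Apoe was left out, and for the other genes a gap at C2 is a description only. Of 40 groups examined, 5 had such a library, 2 of them C6. Scd1 in C6 at 17.1 FPKM and Vldlr in C6 at 29.6 FPKM, the last being the lowest control. Srebf1 in C2 was at 11.8 FPKM, the highest control. In PCOS, P5 was highest for Abca1 (3.80 FPKM) and for Nr1h3 (9.23 FPKM).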

How the results depend on the processing

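No member and no pathway gene that could be tested was called in the 20 alternatives; at a mean FPKM of at least 5 these were 5 members and 37 pathway genes, and otherwise 8 members and at least 62 pathway genes. Over 20 genes and 393 values, 381 kept their direction and 12 turned sign, none of them called. Without control libraries 2, 5 and 6 the log2 difference was 0.003 for Abca1, 0.209 for Abcg1, 0.037 for Mylip, −0.048 for Nr1h2, 0.152 for Scd1, 0.095 for Scd2 and 0.006 for Mboat2. Without 2 and 5 it was 0.069 for Abcg1, 0.082 for Mylip and 0.007 for Mboat2, and Mboat2 ranged from −0.056 to 0.013 when 1 library was left out, turning without control replicate 3 (0.002) or PCOS replicate 1 (0.013). The members' median of −0.271 was −0.162 without C2 and −0.175 without C5. Removing 2 and 5 ended the pooled relation of Abcg1 with Mylip (r = 0.451) and of Srebf1 with Scd2 (r = 0.382), while Scd1 with Scd2, which did not pass over 11 libraries (r = 0.549), passed without C6 (r = 0.928) or without 2 and 5 (r = 0.895). With the replicate number as a block the members' median was −0.258 and 0 were called, with C6, which has no partner, carrying no weight. Same-numbered libraries correlated at −0.118 to 0.254 after removal of group means, and only C4 correlated best with the PCOS library of its number. The labels do not say whether the numbers pair the libraries, and these correlations cannot settle it. Of all rows, 15 were called, against 32 without C6, 22 without 2, 5 and 6, 10 without 2 and 5, 25 with the block, 5 at a mean FPKM of at least 5, and 10 to 32 leaving out 1 library. The cause of these changes was not tested. Abcg1 in C4 rests on 44 reads, the fewest of any member.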

Other observations

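In 12 of 10891 tested rows both C2 and C5 lay at least 1.5-fold above every other library; they were picked by these values and carry no test. Besides Abca1 and Abcg1 they included Irs2, a docking protein of the insulin receptor (7.502 and 8.71 FPKM in C2 and C5, at most 2.36 elsewhere), and Pdk4, a kinase that slows glucose oxidation (115 and 160.5 FPKM, at most 75.9 elsewhere). On chromosome 7, which holds Apoe and 6.64% of the tested rows, lay 5 of the 12: Sae1, Pnmal2, Trappc6a, Igsf23 and Blvrb. Igsf23, from 19937305 to 19953654, was at 5.48 and 5.44 FPKM in C2 and C5 and between 0.154 and 1.81 FPKM in the other 9. Trappc6a, from 19508665 to 19516145, was at 42.7 and 47.8 FPKM in C2 and C5 and between 18.35 and 25.95 FPKM in the other 9. Sae1, Pnmal2 and Blvrb begin at 16320236, 16944682 and 27447978.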
